A study of Mus musculus with 20 samples.

Results

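The genes described here are 10 members of the circadian clock, Bhlhe40, Bhlhe41, Per1, Per2, Cry1, Cry2, Nr1d1, Nr1d2, Arntl and Dbp, in mouse bone marrow-derived macrophages (BMDM). They were chosen by gene symbol, and all 10 were found among the 14456 genes listed with a normalized count. Bhlhe41 was selected because it is drawn as raised by exosomes of high glucose macrophages, so its differences between the exosome groups are given below as a description, with no test. The other 9 genes were tested in each of these comparisons. High glucose, the label date and the pairs of genes after removal of group means were not used in the choice, and all 10 were tested there. The date and pair tests do draw on the exosome libraries in which Bhlhe41 was selected. The genes and tests were also chosen with earlier results of these data known.

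The BMDM were grown with the growth factor M-CSF from the marrow of young male wild-type C57BL/6 mice. In the first experiment, they were cultured for a day at 25 mM glucose, the high glucose group, or at 5.5 mM with 19.5 mM mannitol to keep the osmolarity equal, the normal glucose group (n = 4 libraries each). In the second, naive BMDM were exposed for a day to PBS, to exosomes from BMDM cultured in normal glucose (BMDM–NG-exo) or to exosomes from BMDM cultured in high glucose (BMDM–HG-exo), with n = 4 libraries in each group. The exosome libraries with the same replicate number carry the same date in their labels. The hour of day at harvest is not given in the sources used here, and each library is a single time point, so no rhythm can be read from these data. The sources do not say that each library came from a separate mouse, so p-values measure the spread between these libraries.

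The mammalian clock is a feedback loop of transcription. Arntl (also called BMAL1) and its partner CLOCK bind E-box sequences and switch on the Per and Cry genes, whose proteins return to the nucleus and repress ARNTL and CLOCK. In a second loop, Nr1d1 and Nr1d2 (REV-ERB alpha and beta) repress Arntl. Bhlhe40 and Bhlhe41 (DEC1 and DEC2) bind E-boxes and act as repressors, while Dbp is an output activator that binds D-boxes. Macrophages hold such a clock, and it is known to gate their inflammatory responses.

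Each value is a normalized count, the reads of a gene divided by the size factor of its library. The libraries held between 34016445 and 56310712 reads on the listed genes. All 7 macrophage markers examined were listed, among them Adgre1, Csf1r and Cd68. None of the dendritic, B cell, T cell or erythroid markers examined was listed, and the summed level of the 4 listed neutrophil markers, of 7, was at most 270 normalized counts. Of 4 stromal markers, 3 were listed, with a summed level of 85.5 to 344. In bulk samples, fewer cells of a type and less RNA per cell cannot be told apart.

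Bhlhe41 lies on chromosome 6 of GRCm38 from 145858243 to 145865558, on the minus strand, and Dbp on chromosome 7 from 45705088 to 45710203, on the plus strand. The stretches just upstream of their annotated starts are shown because these were the clock genes that passed the test in high glucose. They were read 5′ to 3′ from the RefSeq promoter windows of GRCm38.p6, and capitals mark the E-box CACGTG. The Bhlhe41 stretch is chr6:145865559-145865670 on the minus strand and the Dbp stretch is chr7:45704997-45705087 on the plus strand.
Bhlhe41: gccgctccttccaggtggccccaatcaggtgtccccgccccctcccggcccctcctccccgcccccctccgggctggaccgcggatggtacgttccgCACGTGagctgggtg
Dbp: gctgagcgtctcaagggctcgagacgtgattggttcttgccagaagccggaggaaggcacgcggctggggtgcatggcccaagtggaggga

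The RefSeq windows run from 250 bases before to 50 bases after a start and were available for 8 of the 10 genes, with 10 windows in all. CACGTG occurred in a window of Bhlhe41, Cry1 and Per1, and in 7.15% of all 32851 windows. CACGTT, searched on both strands like the others, occurred in those of Cry1, Cry2 and Nr1d1 and in 4.68% of all windows. The RORE, the element bound by Nr1d1 and Nr1d2, was matched in 1 window of Arntl and in 0.384% of all windows. The D-box letters (TTATGTAA or TTACGTAA) and TGACGTCA were not in any of the 10 windows, and are in 1.06% and 1.79% of all windows. A match describes letters in these windows and not binding in these cells.

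The 10 genes differed widely in level. Per kilobase of exon, Bhlhe41 was the highest, with a mean of 538 normalized counts over the 20 libraries. Dbp followed at 320 per kilobase, Nr1d2 at 288 and Per1 at 250. Bhlhe40 (144), Arntl (131) and Cry1 (105) lay between these and Cry2 (72.1), Nr1d1 (51.2) and Per2 (20.4). Per2 had between 77 and 191 reads in a library and Nr1d1 between 121 and 235, so their relative counting error was the largest of the 10. In 6 of the genes another gene is annotated on the opposite strand within their bounds, and 3 such neighbours are themselves listed (Gm43909 at Bhlhe41, Thra at Nr1d1 and Sphk2 at Dbp), while the counting was strand-specific.

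**Figure D1:**
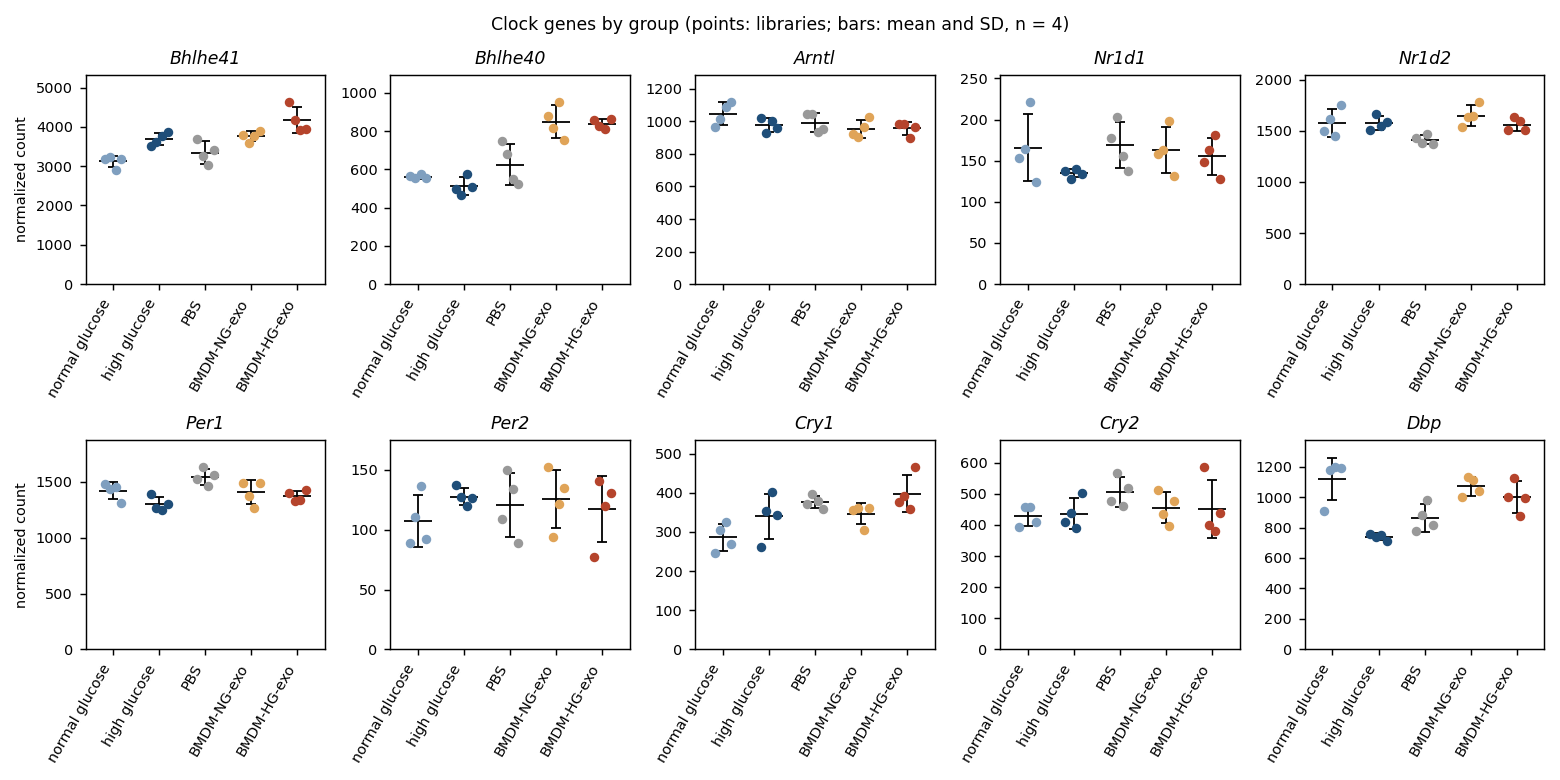
Normalized counts of the 10 clock genes in each library (points) by group, with the mean and SD (bars, n = 4), on axes that start at 0. Dbp is lowest in high glucose (mean 739), Bhlhe41 is highest with BMDM–HG-exo (mean 4166), and Bhlhe40 is higher in both exosome groups (means 850 and 839) than in the other groups.

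The first comparison asked how a high glucose medium changed the clock genes. Of the 10 genes, 1 rose (Bhlhe41) and 1 fell (Dbp), at an adjusted p-value under 0.05 in limma. Of all 14425 genes tested, 13.3% were called, 7.74% higher and 5.53% lower, so the share of the clock genes called was near this background. The median log2 fold change of the 10 genes was -0.05, against -0.0031 over all genes tested.

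Dbp, which codes for the D-box-binding activator, showed the largest change of the 10. Its normalized counts were 760, 736, 752 and 710 in high glucose and 909, 1177, 1196 and 1190 in normal glucose. Each high glucose library lay below each normal glucose library, and normal glucose 1 lay below the other 3 of its group. The log2 fold change was -0.59 (SE 0.0801, limma, Benjamini-Hochberg adjusted p = 1.23e-06). It was -0.68 without normal glucose 1 and remained past the threshold without any 1 of the 8 libraries.

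Bhlhe41, the E-box repressor, moved in the other direction. It had 3515, 3606, 3771 and 3859 normalized counts in high glucose, and 3172, 3235, 2907 and 3178 in normal glucose. The groups did not overlap. The log2 fold change was 0.24 (SE 0.0473, limma, Benjamini-Hochberg adjusted p = 3.78e-04), a ratio of 1.18 on this scale. With no variance trend, its adjusted p in limma was 0.0513, just short of the threshold. The summed level of the 7 macrophage markers also differed between the groups, with 798427 to 868348 normalized counts in high and 620993 to 695733 in normal glucose. Its part in the changes of Bhlhe41 and Dbp was not tested. Most of this sum was Lyz2, with a median of 570203 normalized counts over the 20 libraries, and Csf1r was next at 103572. The sum therefore does not show how the other markers differed.

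The other 8 genes did not pass. Bhlhe40, the paralogue of Bhlhe41, had 512 ± 45.8 normalized counts (SD, n = 4) in high and 563 ± 10.4 in normal glucose, and their ranges overlapped. The activator Arntl had 978 ± 41.9 (SD, n = 4) in high and 1048 ± 69.0 in normal glucose. Its repressor Nr1d1 had 135 ± 5.19 (SD, n = 4) and 166 ± 40.9, and Nr1d2 had 1577 ± 66.1 and 1579 ± 139. These groups overlapped in each gene, and the spread of Nr1d1 in normal glucose came with 1 library at 222 normalized counts. Among the repressors of the main loop, the smallest adjusted p was that of Per1, at 0.205 (limma), with a log2 fold change of -0.12 (SE 0.0623). Per2 and Cry1 had log2 fold changes of 0.27 (SE 0.194) and 0.24 (SE 0.132), as large as that of Bhlhe41 but with wider errors. Cry2 had one of 0.02 (SE 0.105).

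**Figure D2:**
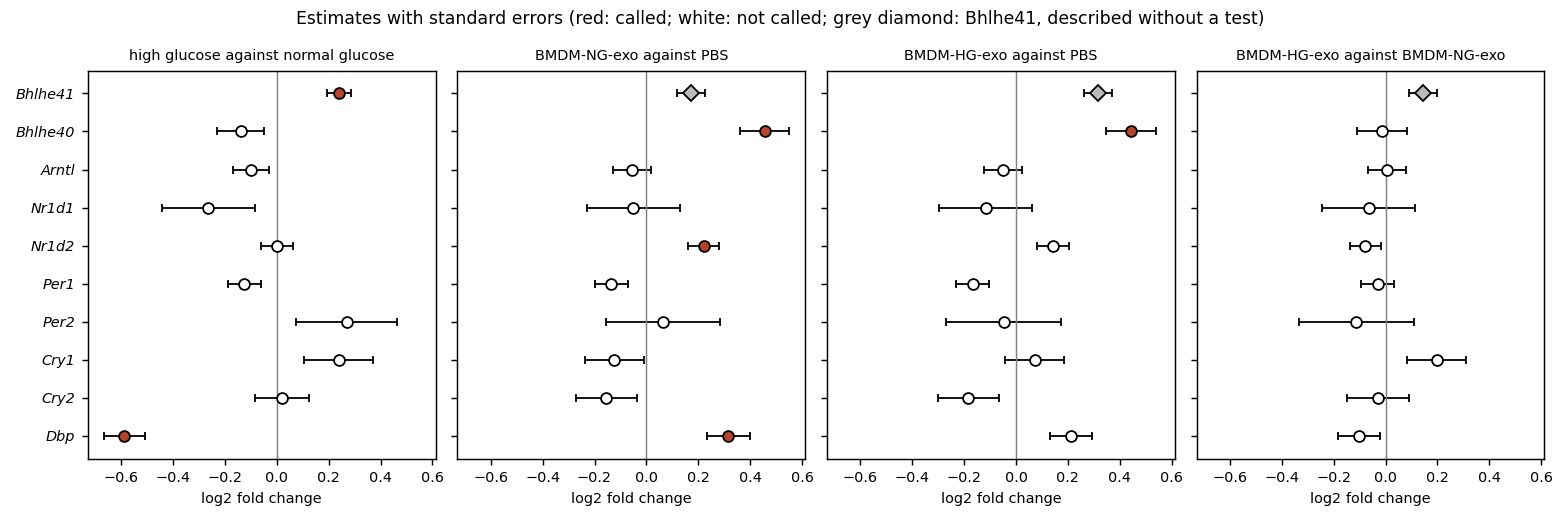
Log2 fold changes (x axis, limma on log2 of the normalized count plus 1) of the 10 genes in 4 comparisons, with standard errors as bars. Red points passed the test, white points did not, and grey diamonds are Bhlhe41 in the exosome experiment, which was not tested. Dbp at -0.59 in high glucose and Bhlhe40 at 0.46 and 0.44 against PBS are the farthest from 0.

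The exosome experiment asked how macrophage exosomes, and exosomes of high glucose macrophages in particular, changed recipient BMDM. The comparisons share their groups, so their values below are not independent of one another. Bhlhe41 is described first. Its normalized counts were 4635, 4168, 3911 and 3952 with BMDM–HG-exo (replicates 1 to 4), 3790, 3597, 3766 and 3897 with BMDM–NG-exo, and 3699, 3264, 3019 and 3404 with PBS. Each BMDM–HG-exo library lay above each library of the other groups, and the lowest of them (3911) was close to the highest with BMDM–NG-exo (3897). BMDM–NG-exo and PBS overlapped. The log2 difference from PBS was 0.32 for BMDM–HG-exo and 0.17 for BMDM–NG-exo, and the 2 kinds of exosome differed by 0.14. The last value rested in part on BMDM–HG-exo 1, without which it was 0.09. On each of the 4 dates the order was PBS, BMDM–NG-exo, BMDM–HG-exo from low to high. Over all 5 groups, the order from high to low was BMDM–HG-exo, BMDM–NG-exo, high glucose, PBS and normal glucose, and each neighbouring pair except the first overlapped.

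**Figure D3:**
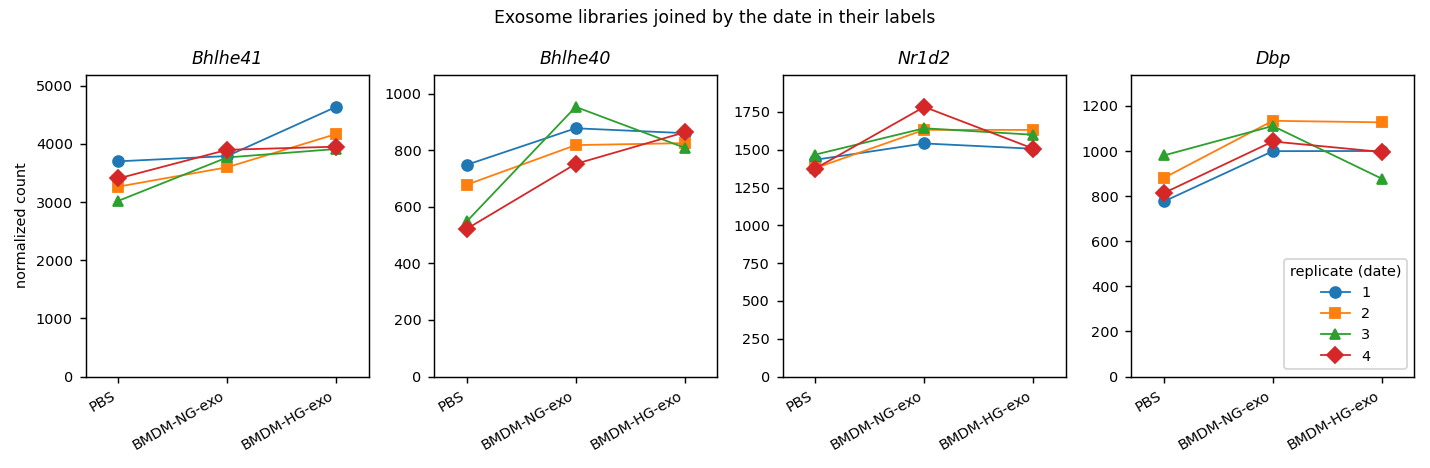
Normalized counts of Bhlhe41, Bhlhe40, Nr1d2 and Dbp in the 12 exosome libraries, with a line for each replicate number, which marks 1 label date. Bhlhe41, Bhlhe40, Nr1d2 and Dbp are higher with BMDM–NG-exo than with PBS on all 4 dates, and Dbp is lower with BMDM–HG-exo than with PBS on 1 date.

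Against PBS, BMDM–NG-exo raised 3 of the 9 tested genes (Bhlhe40, Dbp and Nr1d2) and lowered 0. A call here needed an adjusted p under 0.05 together with a log2 fold change of 0.15 or more in size. Of all 14413 genes tested, 3% were called, 0.888% higher and 2.11% lower, a smaller share than among the clock genes. The count of clock genes is small, and this difference in share was not tested. The median log2 fold change of the 9 genes was -0.05, against 0.0045 over all genes. The summed level of the 7 macrophage markers, most of it Lyz2, was 785780 to 831767 normalized counts with PBS. It was 710680 to 766373 with BMDM–NG-exo and 727963 to 751990 with BMDM–HG-exo, and its part in the changes against PBS was not tested.

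Bhlhe40 had 878, 818, 953 and 752 normalized counts with BMDM–NG-exo, and 748, 678, 548 and 522 with PBS. The groups did not overlap, although the lowest exosome library (752) was near the highest PBS library (748). The log2 fold change was 0.46 (SE 0.0957, limma, Benjamini-Hochberg adjusted p = 0.0026), which held without any 1 of the 12 libraries. Dbp had 1000, 1134, 1111 and 1042 normalized counts with BMDM–NG-exo and 776, 881, 981 and 814 with PBS, again without overlap. Its log2 fold change was 0.32 (SE 0.0814, adjusted p = 0.0189, limma). Nr1d2, the REV-ERB beta gene, had 1542, 1632, 1642 and 1783 normalized counts with BMDM–NG-exo and 1434, 1378, 1468 and 1376 with PBS. Its log2 fold change was 0.22 (SE 0.0601, adjusted p = 0.029, limma). The calls of Dbp and Nr1d2 were lost more often when 1 library was left out. With no variance trend, all 3 were lost (adjusted p = 0.123 for Bhlhe40, 0.176 for Dbp and 0.1 for Nr1d2, limma). In that fit the calls over all genes fell to 95 from 432. Dbp was no longer called without PBS 1 (adjusted p = 0.102), PBS 4 (0.0703), BMDM–NG-exo 2 (0.0835) or BMDM–NG-exo 3 (0.0728) in limma. Nr1d2 was no longer called without PBS 1, 2 or 4 or BMDM–NG-exo 2, 3 or 4, with an adjusted p of at most 0.135 in limma.

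Against PBS, BMDM–HG-exo raised 1 of the 9 genes, Bhlhe40, and lowered 0, while 4.84% of all genes tested were called, 1.76% higher and 3.08% lower. The median log2 fold change of the 9 genes was -0.05, against 0.0034 over all genes. Bhlhe40 had 860, 825, 809 and 863 normalized counts with BMDM–HG-exo, all above the PBS libraries. Its log2 fold change was 0.44 (SE 0.0957, adjusted p = 0.00224, limma), with an adjusted p of 0.0831 when no variance trend was used. Dbp, at 1000, 1127, 878 and 996 normalized counts, overlapped PBS, with a log2 fold change of 0.21 (SE 0.0814, adjusted p = 0.143, limma). Without PBS 3, its adjusted p was 0.0407 and its log2 fold change 0.28. Nr1d2 was above PBS in each library, at 1506, 1631, 1599 and 1507 normalized counts, but did not pass (log2 fold change 0.14, SE 0.0601, adjusted p = 0.200, limma). Per1 was below PBS on all 4 dates with either kind of exosome, and did not pass either (-0.17 with BMDM–HG-exo, SE 0.0637, adjusted p = 0.143, and -0.14 with BMDM–NG-exo, adjusted p = 0.337, limma).

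Between the 2 kinds of exosome, 0 of the 9 genes passed in limma, and 0 had an unadjusted p under 0.05. Among all genes, 2 were called, or 0.0139%. EdgeR and DESeq2 on recovered reads also called 0 of the 9. Bhlhe40 was nearly level, with a log2 fold change of -0.01 (SE 0.0957). Cry1, a repressor of the main loop, had the largest, at 0.20 (SE 0.113, adjusted p = 0.833, limma), with 376, 391, 358 and 466 normalized counts against 356, 360, 306 and 362. The groups overlapped, and Cry1 was higher with BMDM–HG-exo on all 4 dates. Set against the 8 control libraries together (PBS and BMDM–NG-exo), BMDM–HG-exo changed 0 of the 9 genes in limma, where 0.201% of all genes were called, and 0 had an unadjusted p under 0.05. EdgeR and DESeq2 called 0 as well. These controls were fitted as 1 group, so any difference between PBS and BMDM–NG-exo entered the spread. For Bhlhe40, the SE in limma was 0.114 in this comparison. The median log2 fold change of the 9 genes was -0.03 between the exosomes and -0.02 against the controls together, where that over all genes was -0.0011 and 0.00031.

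Arntl, Per1, Per2, Cry1, Cry2 and Nr1d1 passed in none of the comparisons. Arntl was between 898 and 1120 normalized counts in all 20 libraries, the narrowest relative range of the 10 together with Nr1d2 (1376 to 1783). Per2 and Cry2 varied most within the BMDM–HG-exo group, where BMDM–HG-exo 1 had the lowest Per2 count of all libraries (77.5) and the highest Cry2 count (586), and it also had the highest Bhlhe41 count.

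High glucose on the cells and exosomes of high glucose cells could also be compared directly, as the log2 effect of high against normal glucose minus that of BMDM–HG-exo against BMDM–NG-exo. Of the 9 genes, 1 differed (Dbp), against 4.74% of all 14449 genes tested. For Dbp the difference was -0.48 (SE 0.118, limma, Benjamini-Hochberg adjusted p = 0.00895), since it fell by 0.59 on the log2 scale in high glucose and had a log2 fold change of -0.10 (SE 0.0814) between the exosomes. With no variance trend its adjusted p was 0.0655 in limma. The experiments were separate, and what else differed between them cannot be told apart from this difference.

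By label date, 0 of the 10 genes differed among the 12 exosome libraries at an adjusted p under 0.05 in limma, and 0.25% of all genes did. Bhlhe41 had the smallest p, at 0.0124 before and 0.387 after adjustment, and was the only one with an unadjusted p under 0.05. Over all genes, 1366 of 14413 had such a p. Bhlhe41 was selected in these same 12 libraries, so its date result is not fully independent of the selection. EdgeR called 0 of the 10.

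A wider list of 33 clock genes holds other activators and repressors, kinases, ubiquitin ligases and outputs, and 29 of them were listed. In high glucose, 1 rose and 1 fell, so 2 of the 29 were called, a smaller share than the 13.3% of all genes (7.74% higher and 5.53% lower). At an unadjusted p under 0.05 the share was larger instead, with 10 of the 29 against 3663 of all 14425 genes. The counts are small, and these differences in share were not tested. Cipc, which codes for a protein that binds and inhibits CLOCK, was at 2152 ± 53.2 normalized counts (SD, n = 4) under high glucose, against 2496 ± 122 in the normal glucose group. It changed by -0.21 on the log2 scale (adjusted p = 0.00336, limma), and with no variance trend it was not called (adjusted p = 0.0546). The kinase gene Csnk1e, whose product phosphorylates PER proteins, changed by 0.17 (adjusted p = 0.0223, limma), and it was no longer called without normal glucose 3 or 6 or high glucose 1 or 6, with quantile normalization (adjusted p = 0.0928) or with no variance trend (adjusted p = 0.129).

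With exosomes, Cipc was higher instead. It had 2185 ± 75.8 normalized counts (SD, n = 4) with PBS, 2511 ± 133 with BMDM–NG-exo and 2764 ± 230 with BMDM–HG-exo. The log2 fold change against PBS was 0.20 (adjusted p = 0.0376, limma) with BMDM–NG-exo and 0.34 (adjusted p = 8.0e-05, limma) with BMDM–HG-exo. The first was lost without PBS 1 or 2 or BMDM–NG-exo 1, 2 or 3, while the second passed without any 1 library. Noct, a gene of rhythmic output that codes for a phosphatase, fell against PBS in both groups, by 0.45 on the log2 scale with BMDM–NG-exo (adjusted p = 0.0176, limma) and by 0.39 with BMDM–HG-exo (adjusted p = 0.0345, limma). The first call was lost without PBS 3 or 4 or BMDM–NG-exo 3, and the second without PBS 3 or 4 or BMDM–HG-exo 1, 2 or 3. Nfil3, the repressor that competes with Dbp for D-boxes, fell by 0.32 with BMDM–HG-exo (adjusted p = 0.0465, limma), a call that 8 of the alternatives leaving out 1 library and both edgeR and DESeq2 did not keep. In all, 2 of the 29 genes passed with BMDM–NG-exo, 1 higher and 1 lower, and 3 with BMDM–HG-exo, 1 higher and 2 lower. The shares over all genes were 3% (0.888% higher, 2.11% lower) and 4.84% (1.76% higher, 3.08% lower). With no variance trend, Cipc with BMDM–HG-exo was the only one of these calls left. Between the exosomes, and against the 8 controls together, 0 of the 29 passed in limma, with 1 and 3 at an unadjusted p under 0.05, against 942 and 1511 of all 14413 genes. Cipc had the smallest p in both, with log2 fold changes of 0.14 and 0.24. Against the controls together, DESeq2 called Cipc (adjusted p = 0.0285) and limma did so without BMDM–NG-exo 1 or 3. Huwe1 between the exosomes (0.06) and Nfil3 against the controls together (-0.22) came next. By label date, 0 of the 29 passed in limma. An unadjusted p under 0.05 was found for 3 of the 29, with Btrc and Huwe1 the smallest, and for 1366 of all 14413 genes.

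Pairs of clock genes were also followed from library to library, after the group means were removed. Of the 6 pairs examined over the 20 libraries, none passed a permutation test within groups. For Arntl and its repressor Nr1d1, Pearson's r was 0.02 (permutation p = 0.936, adjusted 0.936) and Spearman's rho 0.12 (permutation p = 0.676, adjusted 0.676). For Nr1d1 and Nr1d2, r was -0.43 (permutation p = 0.168, adjusted 0.573) and rho -0.24 (permutation p = 0.398, adjusted 0.628). For Bhlhe40 and Bhlhe41, r was 0.34 (permutation p = 0.311, adjusted 0.573) and rho 0.23 (permutation p = 0.388, adjusted 0.628). Leaving out the 2 libraries farthest from the median of the first gene gave r of 0.09, -0.25 and 0.36 for these pairs. Arntl and Dbp had r of 0.31 over the 20 libraries (permutation p = 0.287, adjusted 0.573). Over the 8 glucose libraries, their r was 0.74 (permutation p = 0.0212, adjusted 0.127) and rho 0.71 (permutation p = 0.0452, adjusted 0.271), with r = 0.79 after 2 libraries were left out. Those 2 were chosen by Arntl alone. Normal glucose 1, where Dbp was lowest in its group (909 normalized counts), was kept, so its part in this r was not tested. Over the 12 exosome libraries, their r was -0.01 (permutation p = 0.973, adjusted 0.988). The largest r in size over the 8 glucose libraries was that of Nr1d1 and Nr1d2, at -0.81 (permutation p = 0.0754, adjusted 0.226).

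The genes most like Bhlhe41 over the 20 libraries, by Pearson's r of log2 values among 11717 other genes with a mean of at least 50, were Plxna1 (0.91), Rabep1 (0.90), Alcam (0.89), Rnh1 (0.88) and Cgnl1 (0.86). With the group means removed, r was between 0.54 and 0.68 for these 5. Of the clock genes, Bhlhe40 came nearest, at r = 0.59, rank 491. Per1 and Arntl had the lowest r of the clock genes, at -0.32 and -0.34 (ranks 9641 and 9860). With the group means removed, this order changed, and r was 0.05 for Per1, 0.31 for Arntl and 0.34 for Bhlhe40. Cry2 was then the highest of the clock genes, at 0.43, and Per2 the lowest, at -0.50. These are descriptions over libraries that share their groups and their size factors.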

How the data were processed

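Stranded total RNA libraries of BMDM were trimmed with cutadapt, mapped to GRCm38 with STAR and counted per gene with featureCounts by the authors. The deposited signal is a gene count that the authors divided by the DESeq2 median-ratio size factor of the library (0.7896 to 1.2545). Symbols and coordinates came from GENCODE M21, which held 14421 of the 14456 identifiers. Reads were recovered from the steps of 18 columns, and in 2 columns the step is near 1. Log2 of the normalized count plus 1 was fitted with limma 3.58.1 (R 4.3.3), with a variance trend, for genes averaging 10 or more. Tests were two-sided and adjusted by Benjamini and Hochberg. EdgeR 4.0.16 and DESeq2 1.42.0 on recovered reads, other scalings, filters and pseudocounts, a block and each library left out were the alternatives. Each experiment had its own fit, and all 20 libraries were fitted together for the difference between their effects. On simulated data, the limit set for the recovery of changed genes failed over all genes and was then applied to genes with a mean of 50 or more, where it was met. This limit was for a log2 fold change of 1 in size, so it does not describe the recovery of smaller changes. The comparisons against PBS were not simulated.

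The labels give exosome libraries with the same replicate number the same date, which pairs them. After removal of group means, 12 such pairs correlated with a mean r of 0.012 (-0.0178 to 0.0556), and 36 other pairs with -0.00397. Library pairs within a group were not copies (chi-square per degree of freedom 5.19 to 41.9). Named genes were the 10 clock genes, the wider list's called genes (up to 6, or the 2 with the smallest p) and the 5 most like Bhlhe41. Members, lists and tests were chosen with earlier results of these data known. Each correlation had 100000 permutations. Correlations were computed in Python 3.11.15 with numpy 2.4.6.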

Additional observations from a re-analysis of the deposited data

Results flagged for a closer look

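Of the 50 groups of 4 libraries (10 genes in 5 groups), 2 held a library far from the other 3 by Dixon's criterion, where chance flags about 1 in 20. Dbp in normal glucose 1 had 909 normalized counts, against 1177 to 1196 in the other 3 libraries. Cry1 in BMDM–NG-exo 3 had 306 normalized counts, against 356 to 362 in the others.

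The effects of the 2 experiments differed by a test of the difference for Dbp, at -0.48 on the log2 scale (adjusted p = 0.00895, limma), and for Cipc, at -0.35 (adjusted p = 0.00272, limma). On that scale Cipc fell by 0.21 in high glucose and was at 0.14 between the exosomes.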

How the results depend on the processing

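Without the variance trend, limma called 1 clock gene in high glucose (Dbp), where the calls over all genes fell to 654 from 1914. It called 0 with BMDM–NG-exo and 0 with BMDM–HG-exo against PBS, where those over all genes fell to 95 from 432 and to 295 from 698. In both, 4 had an unadjusted p under 0.05, as did 1701 and 2147 of all 14413 genes. For the difference between the experiments it called 0, and the calls over all genes fell to 324 from 685. There, 1 had an unadjusted p under 0.05, as did 2284 of all 14449 genes. EdgeR, DESeq2, both pseudocounts, all filters and all scalings kept the same called genes among the 10. In the wider list, quantile normalization dropped Csnk1e in high glucose and Nfil3 with BMDM–HG-exo, the filter at 50 added Nampt in high glucose, edgeR and DESeq2 dropped Nfil3, and DESeq2 added Rora with BMDM–NG-exo and Cipc against the controls together. With each library left out, the count ran from 1 to 2 with BMDM–HG-exo against PBS, 2 without PBS 3, and from 1 to 3 with BMDM–NG-exo against PBS, where it was 1 without PBS 1, PBS 4, BMDM–NG-exo 2 or BMDM–NG-exo 3. With the label date as a replicate block, the counts of clock genes stayed at 3, 1, 0 and 0, and the block added Rora of the wider list with BMDM–NG-exo. The glucose groups share only the numbers 1 and 6 (mean r 0.00712, other pairs -0.00102). With this number as a block 2 clock genes were called, Cipc was not (adjusted p = 0.118) and Npas2 was added, while the calls over all genes fell to 788 from 1914.

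Genes whose direction turned were not called in any of these fits. The log2 fold change of Nr1d2 in high glucose, 0.00198, was -0.000922 with TMM factors, -0.0280 with quantile normalization, -0.00591 with edgeR, -0.00579 with DESeq2 and -0.0677 with the replicate block. With 1 library left out, it ran from -0.0388 to 0.0547, and that of Cry2 from -0.0501 to 0.0707. Against the controls together, Per2 ran from -0.179 to 0.105, Arntl from -0.0375 to 0.00754 and Dbp from -0.00442 to 0.116. Between the exosomes, Bhlhe40 ran from -0.0707 to 0.0435, Per2 from -0.244 to 0.0726, Cry2 from -0.162 to 0.0462, Nr1d1 from -0.163 to 0.0342 and Arntl from -0.0201 to 0.0405. Against PBS, Per2 ran from -0.181 to 0.138 and Cry1 from -0.00507 to 0.120 with BMDM–HG-exo, and Per2 from -0.0687 to 0.197 and Nr1d1 from -0.1504 to 0.0465 with BMDM–NG-exo. For the difference between the experiments, Cry1 ran from -0.0436 to 0.163 and Cry2 from -0.0251 to 0.183. The r of Nr1d1 and Dbp, 0.08, was -0.65 in the exosome libraries with group and date means removed (adjusted p = 0.276, permutation). The cause of these changes was not tested.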
